A study of Homo sapiens with 12 samples.

Results

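The nuclear genes for the proteins of the mitochondrial ribosome were examined as targets of QKI (Quaking), an RNA-binding protein of the KH-domain family that regulates splicing of pre-mRNA. Members were all clusters in the 2 annotated endogenous QKI libraries whose gene names include MRPL or MRPS followed by digits and at most 1 letter from A to C, with pseudogene names left out. They numbered 1562 of 616191 annotated clusters, 1003 of them in endogenous library 1 and 559 in endogenous library 2. They lay in 75 genes, 46 for the large (MRPL) and 29 for the small (MRPS) ribosomal subunit, and 63 of these genes had a cluster in both libraries. Clusters of the tagged libraries were counted as members where they shared at least 1 base and the strand with a member cluster, so a tagged cluster away from every endogenous cluster was not seen. The names matched the present RefSeq symbols for 74 genes. MRPS36 is now listed there as KGD4, and its protein is known as a subunit of the oxoglutarate dehydrogenase complex. The RefSeq symbols MRPL54, MRPL57 and MRPL58 had no cluster under those names, and the files use the older names MRP63 and ICT1 for the last pair.

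RNA contacts were mapped by eCLIP, in which QKI is fixed to RNA with UV light and pulled down, and its bound RNA is sequenced together with a size-matched input. It holds 12 libraries of HEK293T cells, a human embryonic kidney line (HEK293xT in part of the labels), of which 6 are immunoprecipitations and 6 inputs that enter only through the authors' fold values. In the wild type group, cells grown in 10 cm plates were transiently transfected with 10 µg of myc-QKI-5 plasmid, kept for 72 hours, and pulled down with anti-MYC antibody. The mutant group received myc-QKI-5 carrying the amino acid changes K120A and R124A and was otherwise handled alike. The endogenous group was unmodified and was pulled down with anti-QKI antibody. All cells were crosslinked at 254 nm with 400 mJ/cm2. Each group had 2 immunoprecipitation libraries. Antibody and transfection both differ between tagged and endogenous groups and cannot be told apart, and no label says that the endogenous protein was removed from transfected cells. Whether the libraries within a group stem from different cultures is not stated, and p-values therefore describe the spread of these libraries alone, which could be technical.

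The series' design note names embryonic stem cells and cardiomyocyte differentiation instead of a kidney line. Among the annotated clusters, 1 of 8 pluripotency genes (DNMT3B) and 3 of 8 cardiomyocyte genes (ACTN2, RYR2 and TTN) had any cluster, while POU5F1, NANOG, LIN28A, MYH6, MYH7 and TNNT2 had none. All 4 genes listed for the HEK293 line (LIN28B, PAX2, HOXA9 and HOXA10) had clusters. Clusters do not measure expression. At the limits for enrichment given below, ACTN2 had 1 enriched cluster in each endogenous library and RYR2 had 1 in library 2. LIN28B had 4 and 5, while PAX2, HOXA9, HOXA10, DNMT3B and TTN had 0. Between 226962 and 384347 clusters were listed per library, and read depth is unknown. The tagged files list only clusters above input, so a site without a tagged cluster is either empty or not above input.

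The mitochondrial ribosome translates the few proteins encoded by mitochondrial DNA, which are core subunits of the respiratory chain. Its RNAs come from the mitochondrial genome, but all of its proteins are encoded in the nucleus, made in the cytosol and imported. Many are counterparts of bacterial ribosomal proteins, and others are particular to mitochondria. QKI is known to bind ACUAAY-like elements in introns and 3′ UTRs, and the QKI-5 isoform is nuclear.

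The share of member clusters enriched in endogenous QKI was near that of all clusters and rested in part on MRPL34. A cluster is called enriched here where the authors' log2 fold over input is at least 3 and their −log10 p is at least 3, the limits that every peak in their reproducible lists passes. In endogenous library 1, 42 of 1003 member clusters were enriched (4.19%, 95% exact binomial interval 3.03 to 5.62), against 4.22% of all clusters. In endogenous library 2 the count was 23 of 559 (4.11%, 2.63 to 6.11), against 5.39%. Limited to clusters above input, the shares were 42 of 505 (8.32%) against 7.08% of all in library 1, and 23 of 441 (5.22%) against 6.3% in library 2. Over all member clusters the 2 libraries averaged 4.15% ± 0.0566 (SD, n = 2). Without MRPL34, which held 17 and 8 of the enriched clusters, the counts were 25 of 981 (2.55%, 1.66 to 3.74) and 15 of 550 (2.73%, 1.53 to 4.46). MRPL34 was left out after seeing that it held the most enriched clusters, so a lower share follows from the choice. The 4.22% and 5.39% of all clusters keep the top genes of every other family and are no like background for it. Intervals cover counting error only. Neighbouring clusters often belong to 1 site and are not independent.

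Tagged wild type QKI-5 had 12 enriched clusters of 245 in library 1 (4.90%, 2.56 to 8.40) and 10 of 276 in library 2 (3.62%, 1.75 to 6.56). Over all tagged clusters of these libraries the shares were 2.07% and 1.89%. Members need an endogenous cluster beneath them, and over all tagged clusters that have such a cluster the shares were 5.02% and 4.98%. The mutant had 0 enriched clusters of 142 in library 1 and 0 of 157 in library 2, with exact 95% intervals reaching 2.56% and 2.32% (a floor of 3 counts would be 2.11% and 1.91%). Its background was 0.136% and 0.452% over clusters with an endogenous cluster beneath (0.0405% and 0.304% over all), so a difference of the mutant members from other mutant clusters was not detectable at this depth. The wild type counts lay above the mutant counts in both libraries. With 2 libraries per group an exact permutation test cannot give a p under 0.333, and no p is given for sums over the members.

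**Figure D1:**
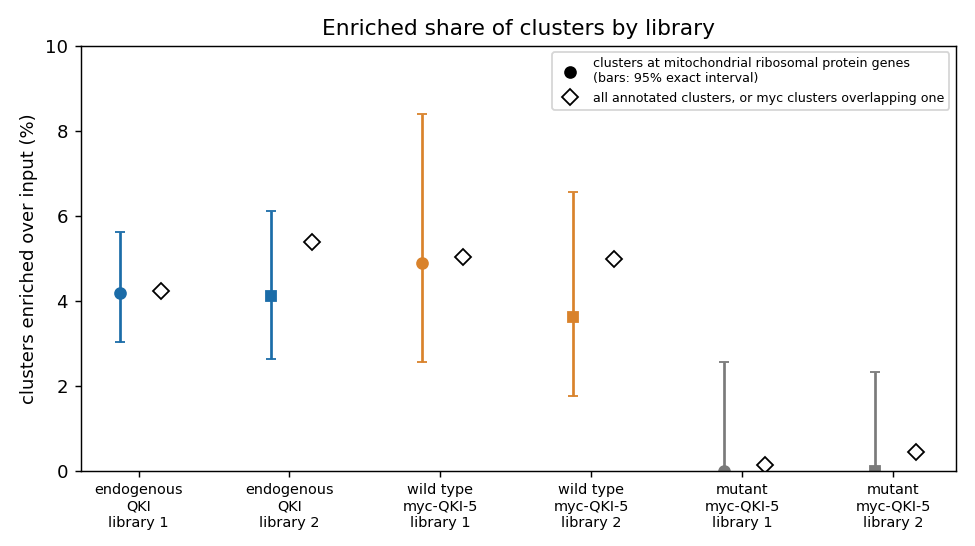
Percentage of clusters enriched over input in each of the 6 libraries, for mitochondrial ribosomal protein genes (filled points, with exact 95% binomial intervals) and for the matching background (open diamonds). With MRPL34 counted, the background lies inside every interval, and the mutant points are at 0 of 142 and 0 of 157.

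By gene, 10 of 75 members (13.3%) had an enriched cluster in both endogenous libraries, against 19.1% of all 20882 names in the annotation. These 10 were MRPL3, MRPL22, MRPL34, MRPL35, MRPL46, MRPL50, MRPS6, MRPS9, MRPS10 and MRPS17. With only clusters named for a member gene alone (LINC01480 not counted), 8 genes remained. MRPL14, MRPL30, MRPL39 and MRPS36 had an enriched cluster in library 1 alone, and that of MRPL30 was also named for LIPT1. In wild type 4 genes were enriched in both libraries, MRPL3, MRPL34, MRPL48 and MRPS6, and 12 in at least 1. These are 5.33% and 16.0% of the members, against 9.89% and 16.5% of all names counted the same way. For MRPL3 and MRPS6 the libraries were enriched at different places in the gene. Over both kinds of library 19 genes (25.3%, against 27.9% of all names) had an enriched cluster and 56 had none. Members had a median of 11 clusters over both endogenous libraries (range 1 to 125), against 9 for all names. MRPS28 had the most (125, of which 98 also carry another gene's name), followed by MRPS6 (119), MRPS27 (89), MRPS9 (76) and MRPL3 (74). MRPS28 and MRPS27 had 0 enriched endogenous clusters. The order by enriched clusters was MRPL34 with 25, MRPS6 with 11, MRPL46 with 5, and MRPL35 and MRPS9 with 4 each. Large subunit genes held 30 and 15 enriched clusters in the endogenous libraries (6.04% and 5.17% of theirs) and small subunit genes 12 and 8 (2.37% and 2.97%), against 4.22% and 5.39% of all clusters. Without MRPL34 the large subunit genes had 13 of 475 and 7 of 281 (2.74% and 2.49%), beside 2.37% and 2.97% for the small subunit.

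MRPL34 alone gave 25 of the 65 enriched endogenous clusters (38.5%). It encodes a large subunit protein with a bacterial counterpart. Its clusters were concentrated in 779 bases of intron on the plus strand of chromosome 19 (hg19, 17412965 to 17413743), with 12 of the 32 endogenous reproducible peaks of all member genes. The annotation calls this stretch distal intron, reaching a 5′ UTR at its 3′ end. It also places a noncoding intron of LINC01480 over all 21 clusters there, so the site cannot be credited to MRPL34 alone. At the leading peak (17413211 to 17413278) the log2 fold was 7.43 and 6.74 in the endogenous libraries and 5.89 and 6.10 in wild type. The mutant libraries also listed a cluster at the same place at 0.02 and 0.05, level with input. Both endogenous values lay above both wild type values, and all 4 lay far above the mutant. By fold the leading peak ranked 174 of 12409 in the endogenous reproducible list, and the wild type peak over it ranked 173 of 3671.

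The flanks of the MRPL34 site differed between endogenous and tagged QKI. Endogenous library 1 had 13 clusters in the 779 bases and library 2 had 8, with log2 folds from 3.34 to 7.43 in library 1 and from 3.92 to 6.74 in library 2. Wild type had 2 clusters in each library, over the leading peak and just 3′ of it, the second at 3.24 and 3.61. At this second cluster the endogenous values were 4.82 and 4.94 and the mutant values 0.89 and 1.02. Further 3′ (17414063 to 17414148 and 17414384 to 17414464), endogenous library 1 had enriched clusters at 3.39 and 4.72, endogenous library 2 and wild type listed none, and the mutant had 0.38 and 0.93 in library 1 and 1.74 and 1.59 in library 2. On the 5′ side (17412615 to 17412659 and 17412908 to 17412964), endogenous library 1 had enriched clusters at 3.13 and 3.68, and no other library listed a cluster. The span of the endogenous signal thus rested in part on library 1.

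**Figure D2:**
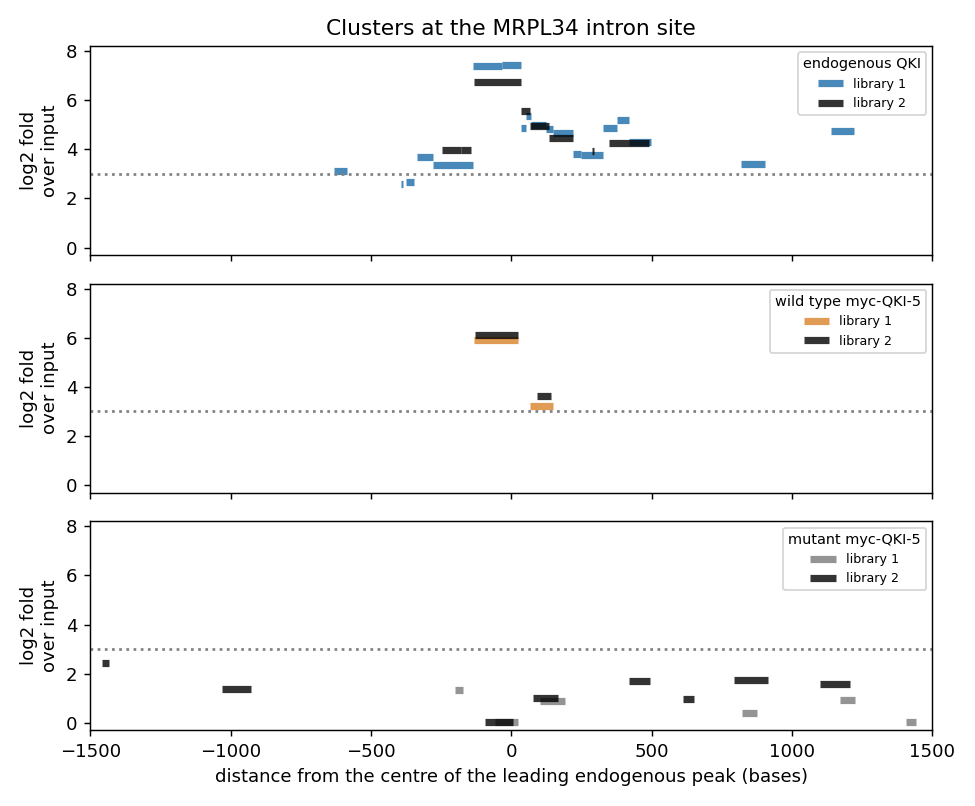
Clusters around the MRPL34 intron site in the endogenous, wild type and mutant libraries. Each bar spans a cluster, with distance in bases from the centre of the leading endogenous peak on the horizontal axis and the authors' log2 fold over input on the vertical axis. The centre is at 7.43 and 6.74 in endogenous, 5.89 and 6.10 in wild type, and 0.02 and 0.05 in the mutant.

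The 32 endogenous reproducible peaks at member genes, 0.258% of the 12409 in the list, fell into 15 sites in 11 genes once peaks within 50 bases were joined. Of the peaks, 28 were in introns only, a share that was not counted over the whole list. The sites were chosen on the endogenous libraries, so their endogenous values are a description. Wild type and mutant values at them were not used in that choice. The endogenous libraries differed at single sites by an SD of 0.09 to 1.48 in log2 fold, and by less than 1 at 14 of 15.

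Among large subunit genes, MRPL35, also for a protein with a bacterial counterpart, came next after MRPL34. Its site lay in the 3′ UTR (chromosome 2, 86438289 to 86438673, plus strand), with log2 folds of 5.33 and 6.01 in endogenous, 2.00 and 2.30 in wild type, and 0.11 in mutant library 2, while mutant library 1 listed none. It was the only 3′ UTR among the 15 sites. The endogenous mean of 5.67 ± 0.48 (SD, n = 2) stood 3.52 above the wild type mean of 2.15 ± 0.21, the widest gap among the 10 sites with a cluster in all 4 endogenous and wild type libraries.

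MRPL3, the gene of a protein near the peptidyl transferase centre, had intron sites on chromosome 3. The stronger (131193198 to 131193341, minus strand) was at 4.32 and 4.68 in endogenous and at 2.73 and 2.48 in wild type. The weaker (131192750 to 131192833) was at 2.88 and 3.30 in endogenous and at 1.18 in wild type library 2 alone. MRPL46, for a protein particular to mitochondria, also had a pair of intron sites (chromosome 15, minus strand). At 89006575 to 89006684 the values were 3.65 and 3.77 in endogenous and 0.87 and 2.76 in wild type. At 89006958 to 89007151 they were 4.30 and 2.92 in endogenous and 2.61 in wild type library 2, with no cluster in wild type library 1. Wild type values lay below both endogenous values at all of these sites.

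MRPL22, for a protein with a bacterial counterpart, and MRPL50, for one particular to mitochondria, showed the range of tagged signal. The MRPL22 intron site (chromosome 5, 154328236 to 154328365, plus strand) was at 4.19 and 4.32 in endogenous and at 2.41 and 1.25 in wild type. The MRPL50 intron site (chromosome 9, 104158025 to 104158196, minus strand) was at 4.41 and 3.32 in endogenous and at 2.94 and 3.76 in wild type, so the groups overlapped. Apart from MRPL34, it was the only member site in both reproducible lists. MRPL14 had the only peak on a 3′ splice site (chromosome 6, 44084402 to 44084446, minus strand), at 3.41 and 2.79 in endogenous and 1.22 in wild type library 1. No mutant library listed a cluster at the MRPL3, MRPL46, MRPL22, MRPL50 or MRPL14 sites.

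Among small subunit genes the highest site carried the names of both MRPS17 and ZNF713, a zinc finger gene, on chromosome 7 (55991898 to 55992051, plus strand). Its values were 5.68 and 5.52 in endogenous and 3.73 and 2.61 in wild type. The 3 MRPS6 sites lay in distal intron on chromosome 21 (plus strand) and were also named for SLC5A3, the myo-inositol transporter gene that sits within MRPS6. At 35457105 to 35457223 the values were 3.51 and 5.61 in endogenous and 1.03 and 4.55 in wild type, with library 2 the higher in both groups. The site at 35452013 to 35452180 was at 4.43 and 4.18 in endogenous and at 2.41 in wild type library 1. The third, at 35450782 to 35450859, was at 3.37 and 4.21 in endogenous and at 3.50 in wild type library 1. These 4 sites cannot be credited to the ribosomal protein gene alone.

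MRPS10 and MRPS9, both for proteins with bacterial counterparts, had sites named for no other gene. The MRPS10 intron (chromosome 6, 42184822 to 42184929, minus strand) was at 4.70 and 4.42 in endogenous and at 1.73 and 2.44 in wild type. The MRPS9 intron (chromosome 2, 105679887 to 105680020, plus strand) was at 4.19 and 4.61 in endogenous and at 3.66 and 3.53 in wild type, the closest approach of wild type to endogenous apart from MRPL50 among sites with a cluster in all 4 libraries. None of the small subunit sites had a mutant cluster.

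**Figure D3:**
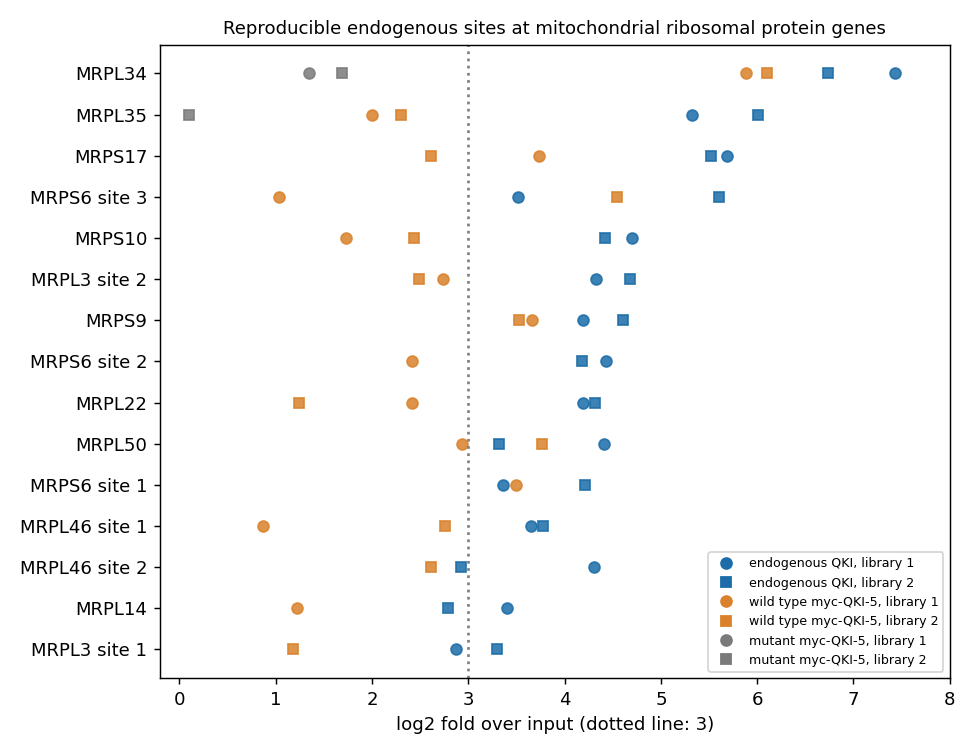
Log2 fold over input at the 15 reproducible endogenous sites in each library where a cluster was listed, ordered by the endogenous mean. Endogenous points run from 2.79 to 7.43, and mutant points appear only at MRPL34 (any cluster in the 779 bases) and MRPL35.

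Over the 15 sites, wild type listed a cluster at 13 and 12, and every listed wild type value was below both endogenous values at 12 sites. Such a gap is partly set by choosing sites on the endogenous libraries. The mutant listed clusters at 1 and 2 sites. Over those of the 32 peaks where a cluster was listed, the median log2 fold was 2.57 and 2.69 in wild type (22 and 18 peaks, mean 2.63 ± 0.08, SD, n = 2). In the mutant it was 0.89 and 1.02 (6 and 8 peaks, mean 0.95 ± 0.10), a difference of 1.67 between partly different peaks. The mutant values came from only 3 clusters per library in the MRPL34 stretch and from MRPL35 in library 2. Most of these MRPL34 clusters were counted at more than 1 peak, so the peaks are not independent values. With unlisted peaks set to 0, the medians over all 32 were 1.87 and 1.75 in wild type and 0 and 0 in the mutant. Over all endogenous reproducible peaks the medians were 2.58 and 2.53 in wild type and 0.83 and 0.84 in the mutant. A wild type cluster was listed at 22 and 18 of the 32 peaks (68.8% and 56.2%), against 84.9% and 81.4% of all peaks. A mutant cluster was listed at 6 and 8 (18.8% and 25.0%), against 9.90% and 10.3%. Of the 32 peaks, 12 lay in the MRPL34 stretch, where wild type listed 2 clusters per library and the mutant 3. Both kinds of share therefore depend on how that site was split into peaks. By site, wild type had 13 and 12 of 15 and the mutant 1 and 2. Most mutant clusters came from MRPL34. Without that gene mutant library 1 had none and the difference has no value. With 1 value per site the difference was 1.39. It rested on MRPL34 (1.34) alone in mutant library 1, and on MRPL34 (1.69) and MRPL35 (0.11) in mutant library 2. These MRPL34 values came from clusters away from the leading peak, where the mutant was at 0.02 and 0.05.

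Tagged QKI-5 also had reproducible sites in these genes, some of them absent from the endogenous reproducible list. The wild type reproducible list held 7 member peaks of 3671 (0.191%), in MRPL13, MRPL22, MRPL34 (2 peaks), MRPL48, MRPL50 and MRPS9. Of these, 3 overlapped an endogenous reproducible peak (42.9%), against 68.2% of the whole list. In the other direction it was 7 of 32 endogenous member peaks (21.9%), against 24.3%. The mutant list held 0 member peaks of 55, with an exact 95% interval reaching 6.49% (a floor of 3 counts would be 5.45%).

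The MRPL48 intron site (chromosome 11, 73504385 to 73504503, plus strand) was enriched in both wild type libraries, at 3.22 and 4.02. It was at 0.84 and 1.15 in endogenous and at 1.61 in mutant library 1. MRPL48 encodes a large subunit protein particular to mitochondria. At a second MRPS9 intron site (105659163 to 105659253) wild type reached 3.94 and 2.96, while endogenous stood at 1.06 and 1.56 and mutant library 1 at 0.19. The other MRPL22 peak lay in intron near a splice site (154330680 to 154330750), where the wild type values of 2.54 and 3.76 compared with endogenous values of 1.43 and 0.98. At all 3 both wild type values were above both endogenous values, on sites chosen in wild type. The MRPL13 intron site (chromosome 8, 121418216 to 121418317, minus strand) had wild type values of 3.94 and 2.76 and, in endogenous library 1, 1.58. On the 5′ splice site of MRPL44, the gene of a protein with a ribonuclease III-like fold (chromosome 2, 224828720 to 224828803, plus strand), wild type was at 3.73 and 3.53 and endogenous library 1 at 1.84. Only the first of these wild type values was enriched.

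Joined across libraries, the 22 enriched wild type clusters formed 19 sites in 12 genes. Of these, 3 were enriched in both wild type libraries (MRPL48 and the pair in MRPL34), 6 were enriched in both endogenous libraries, and 13 were enriched in neither. Of enriched wild type member clusters, 3 of 12 and 3 of 10 overlapped an enriched cluster of the other wild type library, against 57.9% and 53.4% of all enriched clusters. For endogenous the member counts were 28 of 42 and 22 of 23 (66.7% and 95.7%), against 67.0% and 77.5%. Likewise 4 of 12 and 4 of 10 enriched wild type member clusters overlapped an enriched endogenous cluster (33.3% and 40.0%), against 73.0% and 64.8% of all enriched wild type clusters with an endogenous cluster beneath. These differences were not tested, and the counts are small. Many of the wild type sites stood just past the limits, with a −log10 p between 3 and 5.

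**Figure D4:**
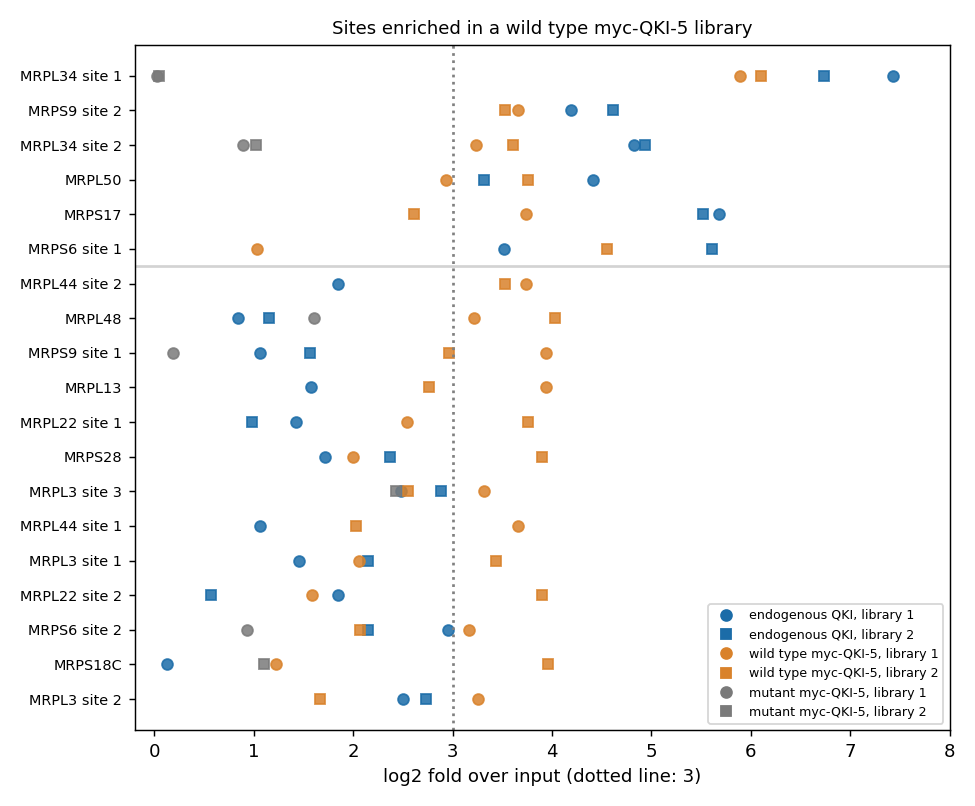
Log2 fold over input in each library at the 19 sites enriched in at least 1 wild type library, with the 6 sites enriched in both endogenous libraries above the grey line and the 13 enriched in neither below it. At MRPL48 wild type is at 3.22 and 4.02 and endogenous at 0.84 and 1.15.

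Wild type was then compared with the mutant region by region with limma, over the 5481 regions that had a cluster in all 4 tagged libraries. Members supplied 6 regions, in MRPL34 (2), MRPL1, MRPL37, MRPL40 and MRPS36. The leading MRPL34 region (17413111 to 17413268) was higher in wild type, at 5.99 ± 0.15 against 0.03 ± 0.02 (SD, n = 2 each), a log2 difference of 5.96 (SE 0.48, limma adjusted p = 0.00183). It was 1 of 36 regions called higher in wild type (0.657% of those tested, and 0.675% with both directions counted). The second MRPL34 region (17413312 to 17413436) was at 3.42 ± 0.26 against 0.95 ± 0.10, a difference of 2.47 (SE 0.48) that missed the threshold (limma adjusted p = 0.0870). It passed when each library was centred on its median, when the spread came from all 6 libraries, and when regions without a −log10 p of 3 were left out. The remaining 4 differed by −0.38 to 0.10 with limma adjusted p from 0.780 to 0.960, on clusters whose −log10 p stayed at or below 1.24. For MRPS36 the values were 1.00 and 2.02 in wild type and 1.61 and 2.11 in the mutant, so the groups overlapped. The requirement of a mutant cluster leaves out sites that the mutant lacks. Of 136 member regions with a cluster in both wild type libraries, 101 (74.3%) had none in either mutant library, against 74.7% of all such regions.

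The mutant's own signal at member genes was weak. Its highest member log2 fold was 3.11, in an intron of MRPL3 in library 2 at a −log10 p of 1.75, with no cluster in library 1. For the −log10 p limit alone no share over all mutant clusters was computed, so whether counts at it are unusual is not known. Mutant library 1 had 0 of 142 member clusters with a −log10 p of at least 3 and library 2 had 5 of 157. Of these, 3 were in introns of MRPL23, with log2 folds of 1.45, 2.50 and 1.61 in library 2 and 1.38, 0.61 and 0.15 in library 1. The others were in the 3′ UTR of MRPS25 (1.38) and the 5′ UTR of MRPL55 (1.57). Endogenous QKI was below input at all 5, from −0.16 to −1.91 in library 1.

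Coding exons of these genes were mostly below input in the endogenous pull-down. Coding exons held 12.5% and 9.84% of member clusters in the endogenous libraries, against 4.09% and 4.47% of all clusters. Of the member clusters in coding exons, 7.20% and 16.4% were above input, against 17.2% and 35.3% of all coding exon clusters, and their median log2 fold was −1.33 and −0.92 (−1.16 and −0.44 over all). In 3′ UTRs 45.2% and 57.5% of member clusters were above input (41.2% and 60.3% over all), and 2 of 73 and 2 of 40 were enriched (2.74% and 5.00%, against 3.33% and 3.84%). None of the 125 and 55 clusters in coding exons was enriched, where 1.07% and 1.31% of all coding exon clusters were. In distal introns 60.4% and 90.0% of member clusters were above input (63.3% and 91.1% over all), and 5.55% and 5.68% were enriched (4.21% and 5.52% over all). Introns near splice sites had 2 enriched of 100 and 0 of 61, against 6.08% and 7.24% of all clusters of that kind. Coding introns together held 37 of the 42 and 21 of the 23 enriched member clusters. Over all clusters they held 13510 of 16231 and 10445 of 12504 enriched ones, so most enriched clusters lay there in general.

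**Figure D5:**
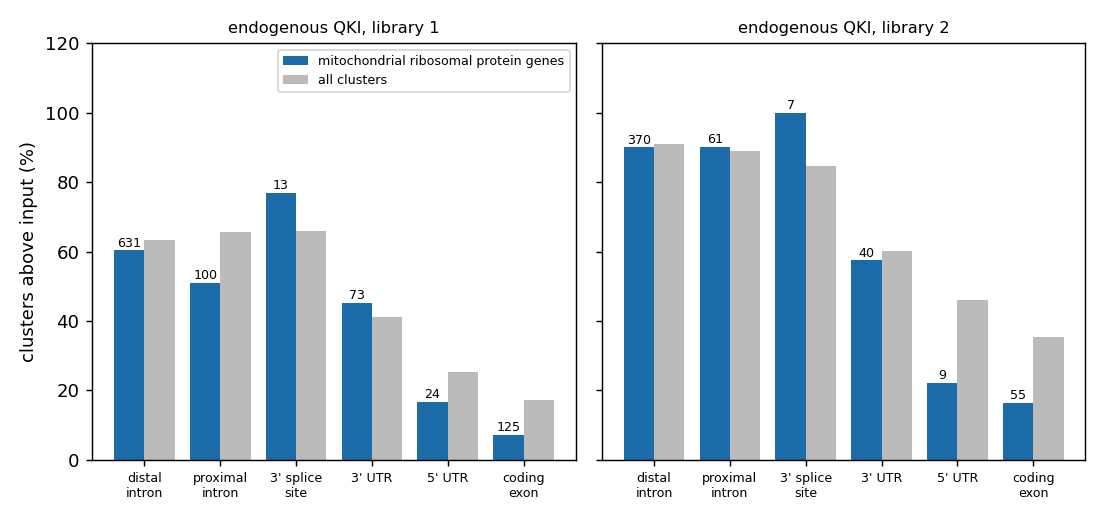
Percentage of endogenous clusters above input by transcript class, for mitochondrial ribosomal protein genes (blue, number of clusters above each bar) and for all clusters (grey), in each endogenous library. Coding exons stand lowest, at 7.20% and 16.4% for the members.

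For 17 of the 75 genes (22.7%) no endogenous cluster was above input, against 15.3% of all names. MRPL2, MRPS12 and MRPS34 (4% of members, against 7.98%) had none above input in any of the 6 libraries. The deepest depletion was in clusters annotated to an intron of MRPS17 near a splice site (chromosome 7, plus strand, from 55955547). They were at −8.20 and −8.16 in endogenous library 1 and between −6.34 and −6.31 in library 2, and no tagged library listed a cluster there. The value of −8.20 was the lowest of all 384347 clusters in library 1. Clusters named for MRPS17 thus held both the lowest member values and the site shared with ZNF713 at 5.68 and 5.52. The depleted clusters carry no other name, but the MRPS17 5′ UTR cluster of endogenous library 1 began at 56019663, far 3′ of them. Clusters that also carry the name ZNF713 lay between, so the depletion cannot be credited to MRPS17 with certainty.

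Other genes of mitochondrial translation had both sites and mostly unenriched clusters. Of 6 mitochondrial ribosomal proteins known under other symbols, all had clusters, with 4 of 104 and 2 of 66 enriched in endogenous (3.85% and 3.03%, against 4.22% and 5.39% of all clusters). Only PTCD3, a pentatricopeptide protein of the small subunit, had reproducible peaks. Its 5′ splice site and the intron beside it (chromosome 2, 86338304 to 86338408, plus strand) were at 3.70 and 4.37 in endogenous and 6.24 and 4.99 in wild type, with no mutant cluster. Of 37 symbols for assembly, ribosomal RNA processing and translation factors, 33 had clusters. Among the rest, C7orf30, GTPBP5 and MTERF4 are second names of the listed MALSU1, MTG2 and MTERFD2, which had clusters, and DDX28 had none. In endogenous, 26 of 594 and 29 of 377 clusters were enriched (4.38% and 7.69%, against the same 4.22% and 5.39%). In wild type 12 of 166 and 7 of 163 were enriched (7.23% and 4.29%, against 5.02% and 4.98% of tagged clusters over an endogenous cluster). In the mutant the counts were 0 of 81 and 1 of 93 (1.08%), against 0.136% and 0.452%. Endogenous reproducible peaks numbered 23 in 11 of these genes and wild type peaks 8 in 4. The highest single endogenous value was in an intron of LRPPRC, a mitochondrial mRNA-stabilising protein gene, at 6.68 and 4.87 in endogenous and 4.56 and 3.33 in wild type. An intron of TFB1M, the gene of a mitochondrial ribosomal RNA methyltransferase, was at 6.35 and 6.47 in endogenous and at 4.87 and 2.09 in wild type.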

How the data were processed

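The 6 immunoprecipitation libraries were grouped by their titles. Per the submitters' processing notes, the tools were cutadapt, SAMtools, STAR and UMI-tools, and the build was hg19. The peak caller and all versions were not given in the sources used here. For every cluster the deposited files hold the authors' log2 fold over input and the authors' −log10 p, capped at 400. The reproducible lists hold 1 value per peak for a pair of libraries. Coordinates are 1-based hg19 positions.

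Counts, medians and overlaps (at least 1 base, same strand, checked against bedtools 2.31.1) were computed with pandas 2.3.3, and exact binomial intervals with scipy 1.17.1. Where several clusters of a library overlapped a site, that of highest −log10 p was used. Clusters of the 4 tagged libraries, touching ones included, were merged into 778449 regions, and limma was run on the 5481 found in all 4 (version 3.58.1, lmFit and eBayes, Benjamini-Hochberg over all 5481, threshold 0.05). On simulated data for this comparison over 5481 regions known shifts of 1, 2, 3 and 4 were called in 0%, 12%, 58% and 88% of cases, with 3 false calls.

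All reproducible peaks with a member name were named, with the member regions of lowest limma p and the 5 genes leading by clusters and by enriched clusters. Members, lists and rules were chosen with earlier results of these data known. MRPL44, MRPL23, MRPS25, MRPL55, the MRPL3 mutant value and the MRPS17 depletion fall outside these rules and were chosen after their values were seen. Same-numbered libraries of wild type and mutant did not deviate together (correlation −0.04 over 5481 regions).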

Additional observations from a re-analysis of the deposited data

Results flagged for a closer look

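The leading MRPL34 region met a rule for a difference between groups, since limma's test of wild type against mutant itself passed its threshold there. The log2 difference was 5.96, from 5.89 and 6.10 in wild type and 0.02 and 0.05 in the mutant. How much tagged protein each pull-down held was not analysed here, and its part in the difference was not tested.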

How the results depend on the processing

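The leading MRPL34 log2 difference was 5.85 to 6.23 over all 10 alternatives run. It passed limma's threshold in every alternative that kept the 4 tagged libraries, with limma adjusted p from 2.38e-05 to 0.0411. In the 4 fits that leave out a library, an arm holds 1 library, which is assumed to vary like the other group. Their p-values and calls are therefore not comparable with those of the full fit. The replicate number is a label only. With a replicate block 1 member region passed, as without it, and all regions called went from 37 to 42. The count of member regions was 2 with centring, with a spread from all 6 libraries and with the filter on −log10 p, and 23 with missing clusters set to 0 over regions found in at least 2 tagged libraries, where the zeros carry no spread of their own. Leaving out each library in turn gave 1 and 1. Over all regions, limma's 37 calls of 5481 became 72 with centring (which moved the median difference from −0.26 to 0.01), 84 of 1701 with 6 libraries, 74 of 1253 with the filter, and 11763 of 169063 with zeros. They numbered 73 and 58 without wild type library 1 or 2 and 4 without either mutant library.

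Mean enriched member clusters per endogenous library went from 32.5 to 20.0 at a log2 fold minimum of 4, and also to 20.0 without MRPL34, a setting chosen after seeing the data. It was 25.5 with only clusters named for a member gene alone (LINC01480 not counted), and 23 to 42 without each library. In wild type the mean of 11.0 became 18.5 and 2.00 at log2 fold minimums of 2 and 4, and 4 at a −log10 p minimum of 5. It was 10 to 12 without each library. Genes enriched in both wild type libraries went from 4 to 8, 1 and 2 under the same settings. The mutant mean of 0 became 0.50 at a log2 fold minimum of 2 and was 0 to 0 without each library. The wild type minus mutant difference of 1.67 at the endogenous peaks was 1.81 with missing clusters set to 0, 2.18 where clusters covered at least 50% of a peak, 1.39 with 1 value per site (added after seeing the data), and 1.61 to 1.74 without each library. The causes were not tested. Read counts per cluster and read depth are unknown, and 14.7% of member clusters carry another gene's name as well. That share leaves out LINC01480, which the annotation also places over all 21 clusters of the MRPL34 stretch.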
